A study of Mus musculus with 8 samples.

Results

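The Immune nuclei of the paraflocculus/flocculus (PF/F) are the 385 nuclei that the authors' deposited annotation puts in the type Immune, out of 48237 annotated PF/F nuclei of 16 types and 79313 annotated nuclei in the whole series. They were found by matching the annotation's library and barcode to the raw matrices. The study used single-nucleus RNA sequencing (snRNA-seq) to compare wild-type (WT) mice with mice that carry 1 functional copy of Tbx1 (Tbx1+/-), a transcription factor gene of the region deleted in 22q11.2 deletion syndrome, in the PF/F, a pair of neighbouring lobules at the side of the cerebellum, and in the petrous temporal bone (PTB) around it. All mice were at postnatal day 5.5, and every library pooled the tissue of 5 mice. Each genotype had 2 PF/F libraries, labelled as replicates 1 and 2, which are taken here as batches 1 and 2. A difference between genotypes was therefore tested over 2 against 2 pools, and its p-value measures the spread between these pools. No Tbx1 UMI was found in Immune nuclei of any library, so the level of the targeted gene could not be checked in them. Among PF/F types Tbx1 was highest in the 183 Endothelial nuclei, at 27.3 CPM on average, with libraries from 0 to 56.0 CPM. The paper reports no Tbx1 in the cerebellar cell types of the postnatal PF/F. Over the 1284369 unique molecular identifiers (UMIs, each standing for 1 captured RNA molecule) of Immune nuclei, a count of 0 allows up to 2.34 counts per 1000000 UMIs (CPM). This limit covers counting error only.

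The immune cells of brain tissue are mostly macrophages. Microglia live within the tissue, arise from the yolk sac, depend on the receptor encoded by Csf1r and its ligands CSF1 and IL-34, and clear dying cells and synapses while the cerebellum forms. Border macrophages live in the meninges, around vessels and in the choroid plexus, share Csf1r with microglia, and differ from them in surface receptors such as the mannose receptor MRC1 and the hyaluronan receptor LYVE1.

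The PF/F Immune type numbered 103 nuclei in WT of batch 1, 76 in WT of batch 2, 73 in Tbx1+/- of batch 1 and 133 in Tbx1+/- of batch 2. Their median depth was 2474, 2841, 2558 and 2801 UMIs per nucleus in the same order. The other nuclei of these libraries had medians of 2905, 3512, 2611 and 3411 UMIs, so Immune nuclei were shallower in all 4 libraries, by a mean log2 ratio of -0.21 (exact paired permutation test, two-sided, p = 0.13, which no 4 libraries can go below). By detected genes per nucleus the mean log2 ratio was -0.05 (exact paired permutation test, two-sided, p = 0.25), with the Tbx1+/- library of batch 1 at 0.09, above its other nuclei. Depth did not separate the genotypes (mean log2 ratio of medians 0.01, Tbx1+/- over WT, exact permutation test, two-sided, p = 1.0). No barcode of an Immune nucleus occurred among the Immune nuclei of another library, and any pair of the PF/F libraries shared 50 to 85 of all their barcodes.

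The label Immune held against its markers. Cx3cr1, the receptor for the neuronal chemokine fractalkine (ENSMUSG00000052336, GRCm38 chromosome 9, 119901616 to 120069879, minus strand), was at 760.3 and 619.6 CPM in WT and at 735 and 738 CPM in Tbx1+/- of batches 1 and 2. Csf1r (ENSMUSG00000024621, GRCm38 chromosome 18, 61100598 to 61132149, plus strand) was at 658 and 507 CPM in WT and at 538 and 611 CPM in Tbx1+/-. The genotypes overlapped for both genes. The mean of Csf1r was 578 ± 68.4 CPM (SD, n = 4), 194 times its 2.99 CPM over all other PF/F nuclei, and its next highest type, Meningeal, had 10.5 ± 6.59 CPM. The mean of Cx3cr1 was 713 ± 63.5 CPM (SD, n = 4), against 151 ± 37.5 CPM in the type RL.early (early rhombic lip, a germinal zone of the cerebellum), its next highest. Since the annotation came from clustering on these genes, these levels are a description and were not tested. UMIs were counted over whole genes, introns included, so levels are compared here for 1 gene at a time and not between genes.

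Of 17 genes shared by myeloid cells, 16 were higher in Immune nuclei than in every other PF/F type in all 4 libraries. They included Ptprc, the leukocyte phosphatase CD45, at 223 ± 57.4 CPM (SD, n = 4) against 5.38 CPM in its next highest type, and Spi1, encoding the myeloid master regulator PU.1, at 147 ± 23.0 CPM against 2.64 CPM. The same held for 12 of 13 microglia genes and 8 of 9 border macrophage genes, the lists that return below. The share of all genes for which it held is not given, here or for the lists below. The 20 genes with the largest ratio of Immune nuclei to the mean of the other types were Gm2629, Gm50035, P2ry6, Mir142hg, Ikzf1, Itgam, Gm2245, F630028O10Rik, Cd86, Siglech, Blnk, Gna15, Arhgap45, Tlr7, Pld4, Abcc3, Csf3r, Fyb, Myo1f and Abcg3. Their ratios ran from 192 for Abcg3 to 794 for Gm2629, a predicted gene model. P2ry6, the UDP receptor that drives microglial phagocytosis, had a ratio of 547, and Itgam, the complement receptor subunit CD11b, one of 423.

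Most lymphoid and granulocyte markers were at or near 0. Of 9 T cell genes, 7 had no UMI in any library, among them Cd3e, Cd3d, Cd3g and Trac, and the list summed to between 4.24 and 13.4 CPM per library. Cd79a and Ms4a1 of the B cell list had no UMI, and most of that list's 21.2 to 75.4 CPM came from Ighm. Of the 6 B cell genes, 2 were higher in Immune nuclei than in every other type in all 4 libraries. Of 7 neutrophil genes, S100a8, S100a9, Ly6g, Elane and Retnlg had none, while Csf3r, the G-CSF receptor gene that microglia also transcribe, was at 152 ± 27.5 CPM (SD, n = 4). The natural killer, mast cell, monocyte and megakaryocyte lists stayed at or below 9.05 CPM in every library. The dendritic cell list was at 22.4 to 101 CPM, against a mean of 134 CPM in Pericyte nuclei, its highest other type. Neural RNA was present as well in every library's sum over Immune nuclei, with 467 to 699 CPM over the granule neuron list against 1195 to 1523 CPM in differentiated granule neurons themselves.

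The Immune nuclei were not 1 population. On the authors' deposited UMAP, 312 nuclei formed a larger group, 71 a smaller one, and the other 2 lay far from both, with no nucleus between UMAP 1 values of 8.43 and 8.73. The larger group held a median of 15 UMIs per nucleus over the 13 microglia genes and 1 over the 9 border macrophage genes. The smaller group held 2 and 23. The first is therefore called microglia-like and the second border-macrophage-like. This division was made after the data were seen, the UMAP was built on the same genes, and no gene is tested between the groups. In the microglia-like group 7 of 312 nuclei had 8 or more border macrophage UMIs, and in the border-macrophage-like group 5 of 71 had fewer.

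**Figure D1:**
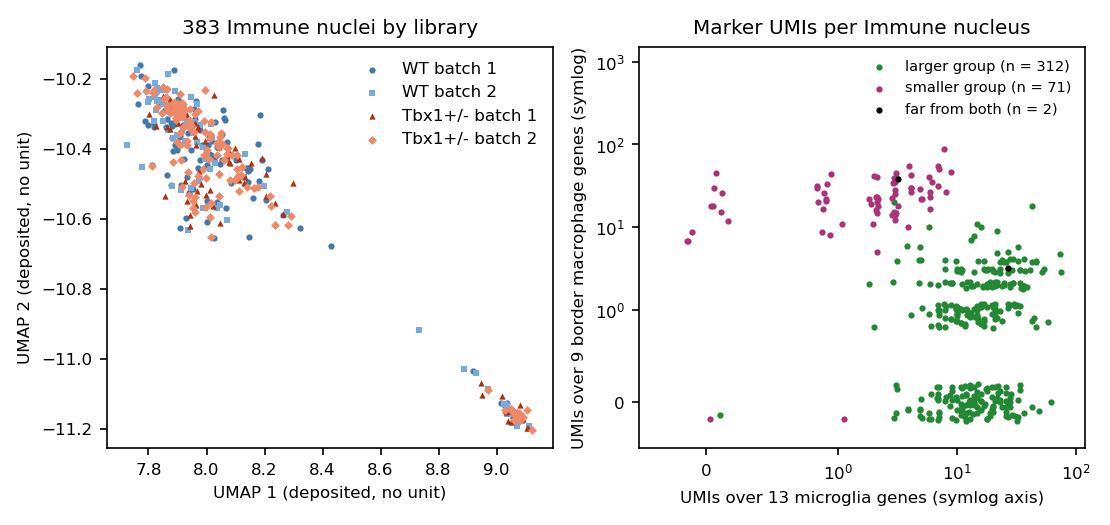
The left panel places 383 Immune nuclei on the deposited UMAP (no unit), with a symbol and colour for each library. The right panel gives, for all 385 nuclei, the UMIs over 13 microglia genes (x) and 9 border macrophage genes (y) on symlog axes with a small jitter, coloured by UMAP group, and most of the smaller group (66 of 71, with 8 or more border macrophage UMIs) sit above most of the larger group (305 of 312, with fewer).

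The border-macrophage-like nuclei were led, by ratio to the other group, by F13a1, Cd163, Pf4, Lyve1, F630028O10Rik and Mrc1. Mrc1 (ENSMUSG00000026712, GRCm38 chromosome 2, 14229392 to 14332057, plus strand) was at 4423, 4044, 2762 and 4836 CPM in this group in WT of batches 1 and 2 and Tbx1+/- of batches 1 and 2, and at 127 to 207 CPM in the microglia-like group. Every library of the one lay far above every library of the other, and the pooled levels differed 23.9-fold. F13a1, the coagulation factor XIII A chain gene of tissue macrophages, was 91.7-fold higher at 1884 CPM, and Pf4, the chemokine CXCL4, was 113-fold higher at 529 CPM. Cd163, the haemoglobin scavenger receptor gene, had 86 UMIs in this group and 0 in the other, at least 152-fold higher when the 0 is set to 3 UMIs over the group. F630028O10Rik, the only one of the 20 genes above with most of its UMIs here, had 206 UMIs in the smaller group and 31 in the larger. Maf, a transcription factor gene of resident macrophages, was 2.68-fold higher, and Cd36, a scavenger receptor for lipids, had 39 UMIs against 3.

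The microglia-like nuclei carried the factors and receptors by which microglia are known. Sall1, the transcription factor gene of microglial identity, had 174 UMIs in this group and 0 in the other, at least 11.0-fold higher, with 154, 165, 165 and 166 CPM in the 4 libraries, a narrow range. Siglech, a sialic acid receptor gene, had 294 UMIs against 1. Cx3cr1 was 4.77-fold higher at 825.5 CPM against 173 CPM, and Trem2, a lipid-sensing receptor gene, 5.31-fold higher. P2ry12, the ADP receptor gene that guides microglial processes, was 2.09-fold higher and Fcrls 1.99-fold, so these 2 marked the microglia-like group less sharply than Siglech did. Lysosomal protease genes were also higher, Ctsd 6.91-fold and Ctsl 5.60-fold, as was Mertk, the receptor for engulfment of dying cells, 3.44-fold. Tmem119, often used as a microglia marker, had only 13 UMIs in all Immune nuclei.

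Other macrophage genes were shared. Csf1r stood at 590.2 CPM in the microglia-like and 593 CPM in the border-macrophage-like group, Spi1 at 148 and 134 CPM, C1qa, which starts the classical complement cascade, at 606 and 578.5 CPM, and Runx1 at 462 and 519 CPM. For each of these 4 genes, 2 libraries were higher in the one group and 2 in the other. Apoe, the main lipid carrier of the brain, was at 6181 and 6705 CPM.

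**Figure D2:**
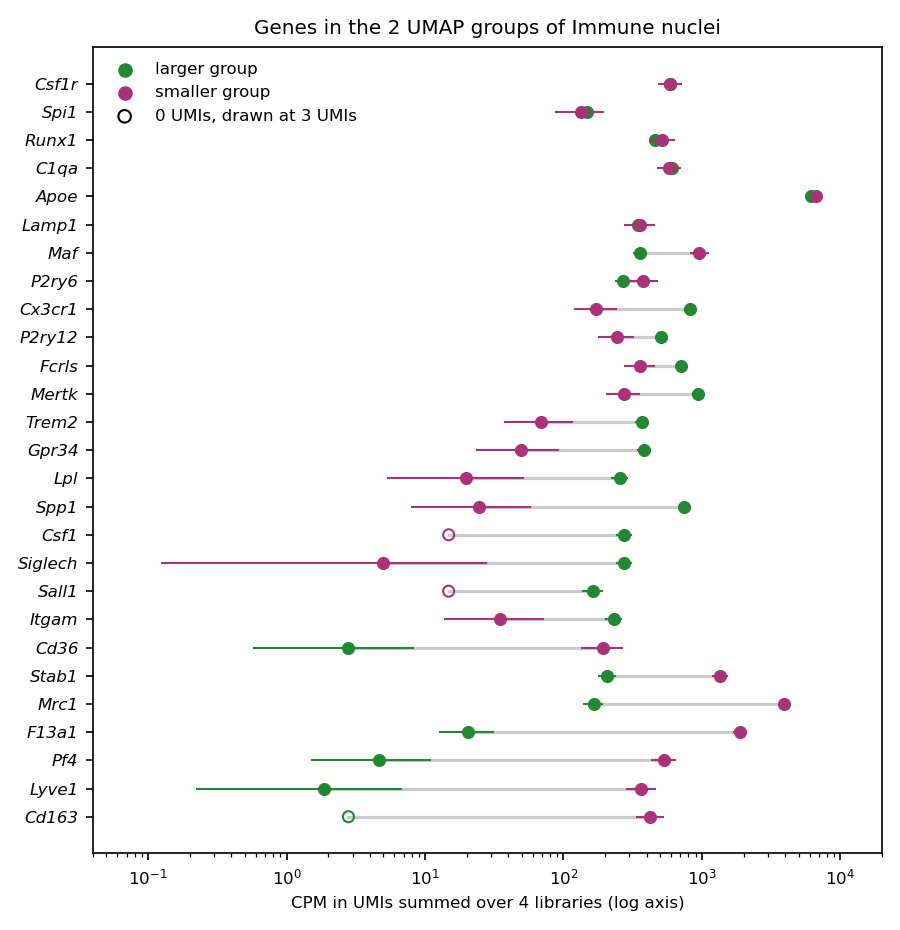
Levels of genes of the lists in the 2 UMAP groups of Immune nuclei, in CPM of the UMIs summed over 4 libraries on a log axis, with 95% Poisson intervals as lines and open circles at 3 UMIs where a group had none. Csf1r, Spi1, Runx1, C1qa and Apoe coincide at the top, the microglia genes spread to the right in the larger group, and Mrc1, F13a1, Pf4, Lyve1 and Cd163 lie to the right in the smaller group.

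The promoters of 1 marker of each group are shown because PU.1, whose gene Spi1 marked both groups alike, is known to bind purine-rich motifs. The 250 bases before the RefSeq start sites are given 5′ to 3′ on the gene's strand (GRCm38.p6), at chr9:120068297-120068546 (minus strand) for Cx3cr1 and chr2:14229164-14229413 (plus strand) for Mrc1, with matches to GAGGAA in capitals where the motif lies on the opposite strand, read as its reverse complement. Csf1r and Spi1 have no entry in the table used.
Cx3cr1: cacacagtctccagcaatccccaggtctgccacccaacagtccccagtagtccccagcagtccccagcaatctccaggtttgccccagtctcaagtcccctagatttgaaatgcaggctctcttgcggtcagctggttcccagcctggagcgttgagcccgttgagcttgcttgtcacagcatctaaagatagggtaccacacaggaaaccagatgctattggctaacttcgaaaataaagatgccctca
Mrc1: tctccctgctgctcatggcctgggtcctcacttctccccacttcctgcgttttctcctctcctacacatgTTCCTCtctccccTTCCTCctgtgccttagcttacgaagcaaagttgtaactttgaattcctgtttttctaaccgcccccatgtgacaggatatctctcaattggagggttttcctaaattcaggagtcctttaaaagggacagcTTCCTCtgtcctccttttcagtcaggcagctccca
The Mrc1 window held 3 matches to GAGGAA, all on the opposite strand, and the Cx3cr1 window none. Neither held the longer form GAGGAAGT. Over 32851 promoter windows of the same length, 23.3% held GAGGAA and 2.44% held GAGGAAGT on either strand. These matches are letters in a window and say nothing on binding in these nuclei.

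The ligand genes of the Csf1r receptor were divided between cell types. Csf1 was at 163 and 321 CPM in WT and at 108 and 279.9 CPM in Tbx1+/- Immune nuclei of batches 1 and 2, higher in batch 2 in both genotypes and overlapping between them. This was above the level of every other PF/F type in all 4 libraries, with 73.9 ± 53.0 CPM (SD, n = 4) in Endothelial nuclei and 55.4 ± 6.55 CPM in Meningeal nuclei next. All 293 of the Csf1 UMIs assigned to the 2 groups came from microglia-like nuclei and none from border-macrophage-like ones, in which a count of 0 allows up to 14.8 CPM. Il34 was the reverse, with 1 UMI in all Immune nuclei and the highest levels in Pericyte (146 ± 70.1 CPM) and Meningeal nuclei (124 ± 10.0 CPM). Cx3cl1, the gene for the Cx3cr1 ligand, had no UMI in Immune nuclei and stayed below 10 CPM on average in every type. Tgfb1, whose product microglia need to keep their identity, was at 69.2 ± 9.41 CPM in Immune nuclei, close to Pericyte (78.4 ± 21.6 CPM) and Endothelial nuclei (63.2 ± 10.8 CPM), and within their spread. Sirpa, the receptor for the CD47 signal that restrains engulfment, was at 509 ± 88.5 CPM in Immune nuclei, and Cd47 was highest in differentiated granule neurons at 268 ± 12.3 CPM.

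**Figure D3:**
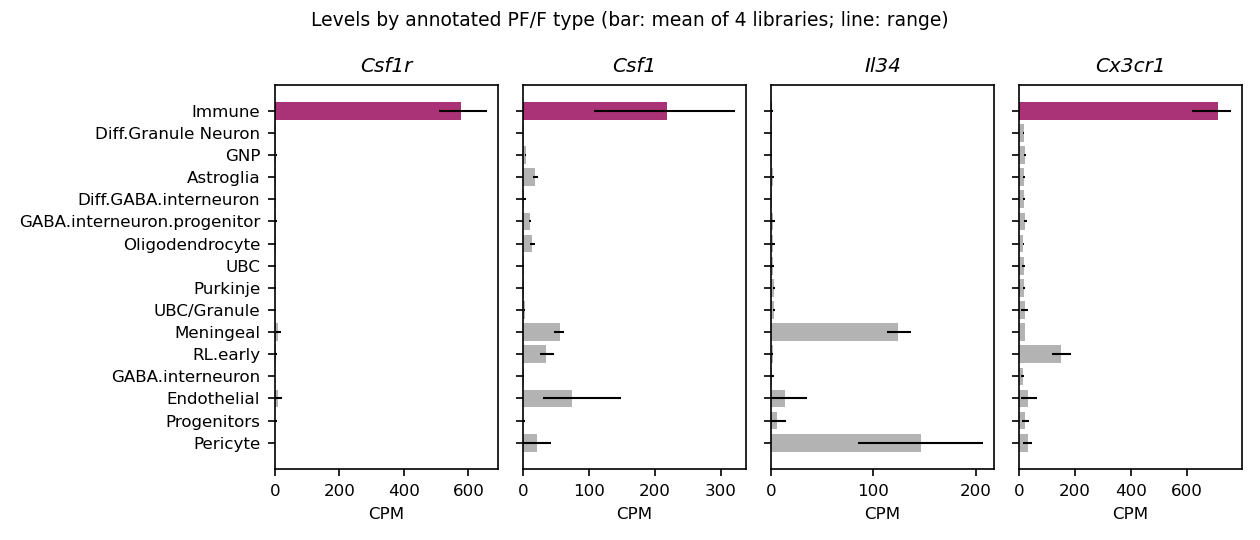
Mean CPM (bars) and range over 4 libraries (lines) of Csf1r, Csf1, Il34 and Cx3cr1 in the 16 annotated PF/F types, with Immune nuclei coloured. Csf1r and Csf1 are highest in Immune nuclei, Il34 in Pericyte and Meningeal nuclei, and Cx3cr1 shows a smaller bar in RL.early.

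The early postnatal brain is known to hold microglia of developing white matter that express Spp1 (osteopontin), Gpnmb, Itgax and Igf1. Spp1 was at 516 and 987 CPM in WT and at 614 and 511 CPM in Tbx1+/- Immune nuclei of batches 1 and 2. The WT library of batch 2 was the highest and the genotypes overlapped. The UMIs were unevenly spread, with 1 or more in 104 of the 312 microglia-like nuclei and in 3 of the 71 border-macrophage-like ones. Of the 312 microglia-like nuclei, 59 had 3 or more Spp1 UMIs, 12 and 18 in WT and 14 and 15 in Tbx1+/- of batches 1 and 2, and 208 had none. This limit was chosen after the values were seen, and median depth was 2993 UMIs in the former and 2612.5 in the latter. Gpnmb was at 248 CPM in the 59 nuclei and 4.30 CPM in the 208, Itgax at 151 and 5.74 CPM, and Igf1, a growth factor for neurons and oligodendrocytes, at 694.5 and 249.5 CPM. Csf1 was at 685 and 185 CPM, Cd9 at 889 and 407 CPM and Lpl, lipoprotein lipase, at 442 and 194 CPM. For each of these 6 genes, picked after their values were seen, every library of the Spp1 nuclei was above every library of the others. All but Csf1 belong to the list of genes of early postnatal activated microglia. Other genes of that list did not part in this way. The libraries overlapped for Fabp5, at 389 and 289.6 CPM, Cd63, at 568 and 493 CPM, and Apoe, at 7179 and 6414 CPM. They also overlapped for Lgals3, at 34.0 and 10.0 CPM, from only 7 UMIs in each. Axl had 3 and 11 UMIs and Cst7 0 and 2. Csf1r was lower in the Spp1 nuclei, at 452 and 657 CPM, with no overlap of libraries. The same held for the microglia genes P2ry12, at 389 and 533 CPM, and Gpr34, at 272 and 420 CPM. Siglech was at 170.0 and 324 CPM, and its libraries overlapped slightly. Sall1, at 179.7 and 166 CPM, had overlapping libraries. These are counts from nuclei of the same libraries and carry no test. The share of all genes whose libraries did not overlap between these nuclei is not given here, so the absence of overlap cannot be weighed.

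All 14 genes of the lysosome list were higher in Immune nuclei than in any other type in all 4 libraries (the share of all genes is not given here). Among them was Ctsb at 1011 ± 121 CPM (SD, n = 4) against 70.5 CPM in Meningeal nuclei. The first complement component was similar, with C1qa at 591 ± 127 CPM against 12.2 CPM in the next type. C3, the central complement protein, had only 2 UMIs. Among innate sensors Tlr7 was at 94.7 ± 11.5 CPM and Tlr2 at 21.4 ± 14.0 CPM, while the cytokine gene Il1b had 1 UMI. Ifit1, an interferon response gene, had none, and only 2 of 14 genes of the interferon list, Ifi204 and Bst2, were highest in Immune nuclei in all libraries. B2m, the light chain of MHC class I, was at 113 ± 21.5 CPM. Over the MHC class II genes H2-Aa, H2-Ab1, H2-Eb1 and Cd74, 1 WT nucleus of batch 2 had 15 UMIs and no other nucleus had more than 3. That nucleus was 1 of the 2 that lay far from both UMAP groups, and it had 39 border macrophage UMIs, 11 UMIs over the meningeal list and 1 UMI each of the dendritic cell genes Flt3, Zbtb46 and Cd209a. The nucleus with 3 belonged to the smaller UMAP group in WT of batch 2, and had no microglia or border macrophage UMI, 18 UMIs over the myeloid list, 2 of Flt3, 2 of Zbtb46 and 1 of the monocyte receptor gene Ccr2. Whether either was a doublet was not tested.

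Osteoclasts, the bone-resorbing relatives of these macrophages, were annotated in the PTB libraries (1559 nuclei). They shared Csf1r with the Immune nuclei, at 513 ± 37.3 CPM (SD, n = 4), and Ptprc, at 253 ± 17.2 CPM. They differed in Cx3cr1, at 12.6 ± 2.02 CPM, in Ikzf1, at 8.67 CPM against 457 CPM in Immune nuclei, and in Sall1, at 1.25 against 134 CPM. Ctsk, the collagen-degrading cathepsin K gene, was at 4606 ± 734 CPM in osteoclasts and had 3 UMIs in all Immune nuclei. Tnfrsf11a, the receptor RANK that osteoclast precursors need, was at 905 ± 21.8 CPM in osteoclasts and still at 205 ± 35.0 CPM in Immune nuclei. The 2 tissues were in separate libraries, and no test was made between them.

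Whether the number of Immune nuclei differed between genotypes was asked next. They made up 0.840% of annotated nuclei in WT of batch 1 (95% Wilson interval 0.694 to 1.02), 0.830% in WT of batch 2 (0.664 to 1.04), 0.528% in Tbx1+/- of batch 1 (0.420 to 0.663) and 1.02% in Tbx1+/- of batch 2 (0.864 to 1.21). The Tbx1+/- libraries held the lowest and the highest value, with both WT libraries between them. The log2 ratio was -0.67 in batch 1 and 0.30 in batch 2, and the fitted change was -0.11 (standard error 0.38, edgeR adjusted p = 0.976 over 16 types), with 0 of 16 types (0%) past an adjusted p of 0.1 and DESeq2 giving an adjusted p of 0.94 for Immune nuclei. Without the Tbx1+/- library of batch 2 it was -0.66, and without that of batch 1 it was 0.29. In these fits the spread between libraries came from the 2 WT libraries alone, and the lone Tbx1+/- library was assumed to vary like them. The WT shares were close, at 0.840% and 0.830%, so this spread was small, and no p-value of these fits is given. The intervals cover counting error only.

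**Figure D4:**
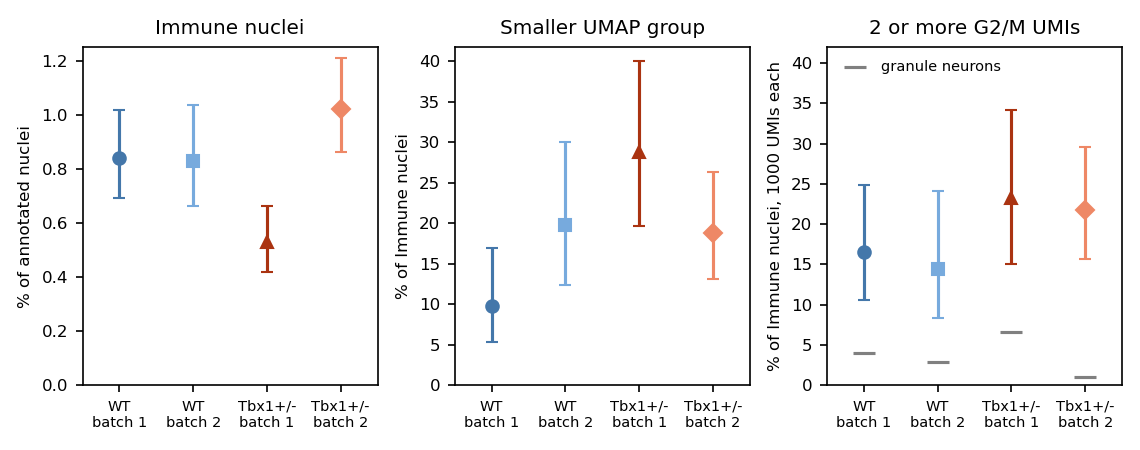
By library, the percent of annotated nuclei that were Immune, the percent of Immune nuclei in the smaller UMAP group, and the percent of Immune nuclei with 2 or more G2/M UMIs after thinning to 1000 UMIs, each with its 95% Wilson interval. The Tbx1+/- libraries hold both extremes of the first panel, the smaller group runs from 9.71% to 28.8%, and grey dashes give the G2/M measure in differentiated granule neurons.

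Border-macrophage-like nuclei were 10 of 103 (9.71%) and 15 of 76 (19.7%) Immune nuclei in WT and 21 of 73 (28.8%) and 25 of 133 (18.8%) in Tbx1+/- of batches 1 and 2. The genotypes overlapped, and the difference was 19.1 percentage points in batch 1 and -0.94 in batch 2 (exact permutation test, two-sided, p = 0.667). Of the 15 in WT of batch 2, 2 had no border macrophage UMI. Counted as nuclei with 8 or more border macrophage UMIs, a limit chosen after the data were seen, the genotypes did not overlap and differed by 8.02 percentage points (exact permutation test, p = 0.333). Counted instead as nuclei with 2 or more border macrophage UMIs after thinning every nucleus to 1000 UMIs, which all 385 reached, the share was 14.6% and 22.4% in WT and 35.6% and 22.6% in Tbx1+/- (34.0%, 42.1%, 56.2% and 45.1% without thinning). Here both Tbx1+/- libraries were above both WT ones, by 10.6 percentage points on average (p = 0.333 in a two-sided exact permutation test, which 2 against 2 libraries cannot go below), although the batch 2 libraries were almost equal. Differentiated granule neurons gave 1.0% to 2.4% by the same measure at median depths of 2533 to 3516 UMIs (4.0% to 9.2% without thinning). The list was not absent from them, at 64.8 to 77.3 CPM, against 48.1 to 64.6 CPM over all nuclei other than Immune. Without the Tbx1+/- library of batch 1 the difference was 4.09 percentage points, and without the WT library of batch 1 it was 6.72. Meningeal, Endothelial and Pericyte nuclei together, which come from the places where border macrophages live, were 1.49% and 2.15% of annotated nuclei in WT and 2.12% and 2.24% in Tbx1+/-, lowest in the same WT library, and their part in the result was not tested.

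Some Immune nuclei were dividing by their RNA. After thinning, 2 or more UMIs over 10 G2/M genes were found in 16.5% and 14.5% of Immune nuclei in WT and in 23.3% and 21.8% in Tbx1+/- of batches 1 and 2 (33.0%, 31.6%, 43.8% and 37.6% without thinning). The granule neurons gave 4.0%, 2.8%, 6.6% and 1.0%, so the Immune shares were above this background in every library. Both Tbx1+/- libraries exceeded both WT libraries, by 7.06 percentage points on average (p = 0.333 in the same exact permutation test), and by 3.53 when 1 UMI was enough. Summed as CPM, the same 10 genes were at 812 and 581 CPM in WT and at 937 and 806 CPM in Tbx1+/-, and the genotypes overlapped. The 13 S phase genes overlapped as well, at 440.5 and 763 CPM in WT and at 767 and 488 CPM in Tbx1+/-. The share was 18.9% (95% Wilson interval 15.0 to 23.6) of microglia-like and 21.1% (13.2 to 32.0) of border-macrophage-like nuclei, pooled over libraries. By library it was 17.2% and 15.0% in WT and 21.2% and 21.5% in Tbx1+/- for the microglia-like, and 10.0% and 13.3% in WT and 28.6% and 24.0% in Tbx1+/- for the 10 to 25 border-macrophage-like nuclei of a library. Mki67, the proliferation marker Ki-67, was at 118 and 92.9 CPM in WT and at 108 and 95.4 CPM in Tbx1+/-, and the genotypes overlapped. In granule neuron progenitors, the main dividing cells of this tissue, it was at 252 CPM.

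The share with 3 or more UMIs over the 12 measured genes of early postnatal activated microglia was 94.2% and 75.0% in WT and 86.3% and 78.2% in Tbx1+/- of batches 1 and 2 (99.0%, 100%, 98.6% and 98.5% without thinning). Both batch 1 libraries were above both batch 2 libraries after thinning but not without it, which was not tested. The genotypes overlapped (difference -2.34 percentage points, exact permutation test, two-sided, p = 1.0), and without the WT library of batch 1 the difference was 7.25. After thinning, 84.0% of microglia-like and 81.7% of border-macrophage-like nuclei passed, pooled over libraries, so the measure did not mark microglia alone. Granule neurons gave 25.2% and 8.4% in WT and 15.4% and 8.8% in Tbx1+/-, with the same order of batches. Most of these UMIs were Apoe, which was at 8924 and 2881 CPM in WT and at 6849.7 and 5848 CPM in Tbx1+/- Immune nuclei. Over all other nuclei it was at 850.0 and 304 CPM in WT and at 685 and 437 CPM in Tbx1+/-, so that the order of libraries was the same in and outside Immune nuclei. The part of free RNA in this was not tested.

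Across all genes of the Immune nuclei, the genotypes were compared on the UMIs summed per library. Of 6846 genes tested, 0 (0%) passed an adjusted p of 0.05 and a 1.5-fold change in edgeR, where 198 (2.89%) had an unadjusted p under 0.05. DESeq2 also called 0, with 19 at an unadjusted p under 0.05. With the batch as a block, edgeR called 0 and had 312 under 0.05. Leaving out 1 library gave 25 calls without WT of batch 1, 12 without WT of batch 2, 5 without Tbx1+/- of batch 1 and 0 without Tbx1+/- of batch 2. These fits took the spread from the genotype that kept 2 libraries and assumed that the lone library of the other varied like them. Of the 25, 21 were higher and 4 lower in Tbx1+/-, whereas of the 12, 3 were higher and 9 lower. Lyve1 was among the 25 and among the 5, and F13a1 among the 12. Cntnap5a and Grm7, which are best known from neurons, were among both the 25 and the 12, and Ttr, a choroid plexus gene, among the 25 and the 5, and the part of RNA from other cell types in these calls was not tested.

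Lyve1 (ENSMUSG00000030787, GRCm38 chromosome 7, 110850607 to 110863239, minus strand) had the smallest unadjusted p of all genes that were higher in Tbx1+/- in both batches. It was at 24.1 and 19.4 CPM in WT (8 and 5 UMIs) and at 85.2 and 97.5 CPM in Tbx1+/- (19 and 46 UMIs) of batches 1 and 2. Both Tbx1+/- libraries lay above both WT libraries, by 2.05 on the log2 scale (standard error 0.40, unadjusted p = 0.000239, edgeR adjusted p = 1.00). Within the border-macrophage-like nuclei alone it was at 305 and 73.1 CPM in WT and at 273 and 652 CPM in Tbx1+/-, where the genotypes overlapped, and only 30 of those 71 nuclei had a Lyve1 UMI.

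All 7 tested border macrophage genes had a fitted change above 0, with a median of 0.48 on the log2 scale against 0.00 over all genes tested, and 1 of them, Lyve1, had an unadjusted p under 0.05 and was higher (1.39% of all genes tested were). In 3 of the 7 the genotypes did not overlap (14.5% of all genes tested did not, in this direction). Mrc1 was at 489 and 782 CPM in WT and at 905.5 and 882 CPM in Tbx1+/-, and F13a1 at 118 and 364 CPM and at 448 and 396.5 CPM. In both, the WT library of batch 1 stood below the other 3. Their batch ratios were 0.88 and 0.17 for Mrc1 and 1.88 and 0.12 for F13a1 (log2, with 2 prior counts), so the difference lay mostly in batch 1. The share of border-macrophage-like nuclei also differed in batch 1, and its part in these genes was not tested. When only microglia-like nuclei were summed, the border macrophage genes tested there had a median of 0.34. These were fewer genes, and Lyve1 was not among them. In microglia-like nuclei Cd163 had 0 UMIs, Lyve1 2 and Pf4 5, against 177 for Mrc1 and 221 for Stab1. The 2 medians are therefore not over the same genes and cannot be compared. All 14 lysosome genes were above 0 as well, with a median of 0.16, 0 of 14 under an unadjusted p of 0.05 and 4 without overlap of the genotypes. The 11 tested microglia genes had a median of 0.08, the 17 myeloid genes 0.01, the 8 complement genes 0.29, the 8 engulfment genes 0.14, the 8 lipid genes 0.05 and the 8 genes of early postnatal activated microglia 0.00, with none under an unadjusted p of 0.05. Top2a of the 8 tested G2/M genes was under it.

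**Figure D5:**
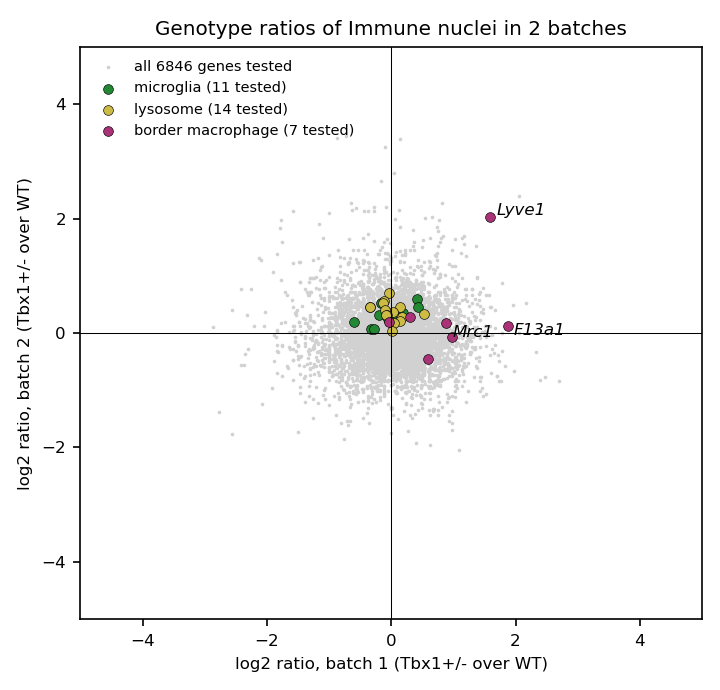
Log2 ratio of Tbx1+/- over WT in Immune nuclei in batch 1 (x) and batch 2 (y), with 2 prior counts, for all 6846 genes tested (grey) and for genes of 3 lists. The microglia and lysosome genes lie near the origin, Mrc1 and F13a1 lie to the right of it with batch 2 ratios near 0, and Lyve1 is at 1.59 and 2.02.

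Ranked by unadjusted p among genes with 1 direction in the 2 batches, the next were Pde10a, Phldb2, Zfp804b and Mbp, with higher values in Tbx1+/-, and Gm32509, Agbl4, Rmst, Fstl5 and Schip1, with lower ones. Their fitted changes ran from 1.36 to 3.08 and from -1.09 to -2.50 on the log2 scale, all at an edgeR adjusted p of 1.00. Leaving out 1 library moved these sizes, among others to 0.86 to 1.87 for Zfp804b and 0.92 to 1.91 for Mbp. For Schip1 they ran from -1.68 to -0.64 and for Agbl4 from -3.55 to -2.14. Phldb2 was at 6.03 and 3.87 CPM in WT (2 and 1 UMIs) and at 44.8 and 46.7 CPM in Tbx1+/- (10 and 22 UMIs). Agbl4 was at 57.3 and 58.1 CPM in WT (19 and 15 UMIs) and at 4.48 and 12.7 CPM in Tbx1+/- (1 and 6 UMIs). With so few UMIs the size of either change is uncertain. Mbp, the myelin basic protein gene of oligodendrocytes, was at 30.2 and 31.0 CPM in WT and at 58.3 and 114.5 CPM in Tbx1+/-. The genotypes did not overlap in any of the 10 genes, which were picked for a small p and 1 direction in both batches, beside 14.5% (higher) and 14.9% (lower) of all genes tested. Over the 6 oligodendrocyte markers the Immune nuclei held 145 and 85.2 CPM in WT and 139 and 212 CPM in Tbx1+/-, and over all other nuclei these summed to 183 to 219.9 CPM. When only the microglia-like nuclei were summed, edgeR called 0 of 6071 genes, with 176 under an unadjusted p of 0.05. Without the 8% of Immune nuclei with the most UMIs, Schip1 changed direction, to 0.61, Zfp804b was at 0.01 and Rmst at -0.36. With only the nuclei whose microglia or border macrophage UMIs exceeded those of other lists, Rmst was at -0.30, Fstl5 at -0.55, Schip1 at -0.60 and Mbp at 0.85, while Zfp804b was at 2.94 and Lyve1 at 1.90.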

How the data were processed

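The deposited count matrices hold whole-number UMI counts, obtained by the authors from Cell Ranger 7.0.0 with mm10 (per the labels), introns included. The authors removed nuclei under 1000 detected genes and outliers, corrected free RNA with SoupX and clustered the nuclei. Their deposited annotation gives each nucleus's type, UMAP values (score) and SoupX-corrected UMI total, an estimated count that the authors computed. No doublet step was run here, and one by the authors is not given in the sources used here. Raw UMIs of the 385 annotated Immune nuclei were summed per library (223075 to 471595 UMIs) and tested with edgeR 4.0.16 (filterByExpr, TMM, quasi-likelihood test, Benjamini-Hochberg adjustment) in R 4.3.3. DESeq2 1.42.0 was an alternative. Nuclei per type were tested with edgeR, with all nuclei as offset. Shares used nuclei thinned to 1000 UMIs and exact permutation tests in SciPy 1.17.1. Code was tested on simulated data, in which edgeR called 20% of 90 genes changed 2-fold and 90.3% of 93 changed 4-fold. It also called 6 unchanged genes. The simulation changed 200 genes at once, which makes the adjusted threshold easier to pass than where few genes change. In the data Lyve1, at a fitted log2 change of 2.05, and Phldb2, at 3.08, were not called. The 0 calls between genotypes therefore exclude neither 2-fold nor 4-fold differences. The paper describes 2 batches of mice per genotype, and the replicate numbers of the labels were taken here as these batches. The paper itself does not tie replicate numbers to batches. The deviations of libraries with the same replicate number from their genotype's mean correlated at 0.28 across 2543 genes. Replicates differed by more than sampling noise (chi-square per degree of freedom 3.00 in WT and 2.09 in Tbx1+/-).

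The members and gene lists were chosen with earlier results of these data known. Named genes were Cx3cr1, Csf1r, Tbx1, list members, the 20 genes with the largest ratio to other types (20 or more UMIs in each library), and the 5 higher and 5 lower genes with the smallest unadjusted p that moved alike in both batches. Values are given for the first gene of a list, and other list members with values, and Cntnap5a, Grm7 and Ttr, were chosen after their values were seen. Clec7a was not analysed here, and results for some other list members are not reported here. Promoters are from RefSeq (GRCm38.p6), of which 2 of the 4 genes looked for had an entry, and gene positions from GENCODE vM21.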

Additional observations from a re-analysis of the deposited data

Results flagged for a closer look

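Barcodes outside the annotation also carried Immune markers. Of 9721 PF/F barcodes that Cell Ranger kept and the annotation does not hold, 176 (1.81%) had 3 or more UMIs over the microglia and border macrophage genes and more than over any list of another cell type. By library there were 45 of 3055 and 36 of 1430 in WT and 48 of 3268 and 47 of 1968 in Tbx1+/- of batches 1 and 2. Their median depth was 1328 to 1535 UMIs, and 77 of the 176 had fewer than 1000 detected genes. Csf1r in them was at 412 and 802 CPM in WT and at 546 and 1318.5 CPM in Tbx1+/-. The same limits were passed by 351 of the 385 annotated Immune nuclei and by 175 of the 47852 nuclei of other types.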

How the results depend on the processing

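The count of 0 called genes held with the replicate block, DESeq2, RLE factors, all genes in place of the filtered ones, without the nuclei of most UMIs, with nuclei of clear marker content and in microglia-like nuclei, and leaving out 1 library gave 0 to 25. The pairing by batch changed no call. It moved the number of genes at an unadjusted p under 0.05 from 198 to 312, and it gave a change in the number of Immune nuclei of -0.18 and a difference in border macrophage share of 10.6 percentage points (exact permutation p = 0.5, the smallest that 2 pairs give). The number of Immune nuclei changed by 0.17 with nuclei of 2000 or more detected genes and by 0.51 for border-macrophage-like nuclei alone, both in the direction opposite to the -0.11 over all, by -0.24 for microglia-like nuclei alone, and from -0.66 to 0.29 (all log2) leaving out 1 library. The cause was not tested. The activated share differed by 0.16 percentage points with 1 UMI over the list and by -11.9 to 7.25 leaving out 1 library, the median depth by -0.0857 to 0.114 (log2), the border macrophage share by 4.09 to 17.2 and the G2/M share by 6.04 to 8.07. The G2/M difference was 3.53 with 1 UMI over the list and 5.22 in microglia-like nuclei. Averaged per nucleus, Cx3cr1 was at 837 CPM and Csf1r at 679 CPM, more than 1 SD above the summed levels. Of 101 values of the 10 genes named for their p, 92 kept their direction without passing the threshold, which says nothing of their size, 8 passed it when 1 library was left out, and Schip1 turned to 0.61 without the nuclei of most UMIs, where Zfp804b fell to 0.01 and Rmst was at -0.36. With 73 to 133 nuclei per library, a gene below about 2.34 CPM over all libraries is not told from 0.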
